A study of Mus musculus with 12 samples.

Results

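The 10 genes of arginine, nitric oxide and polyamine metabolism were followed through 4 monocyte and macrophage (Mo-Mac) fractions of allergic skin. They were taken by their place in the pathway, with earlier results of these data known. They are 10 of the 37775 gene symbols in the table, and all 10 were among the 22118 symbols that passed the filter on low counts. The transporters were Slc7a1 and Slc7a2, the enzymes that use arginine were Arg1, Arg2 and Nos2, the enzyme that rebuilds it was Ass1, and the polyamine enzymes were Odc1, Srm, Sms and Sat1. The mice were male wild-type (WT) BALB/c mice with IgE-mediated chronic allergic inflammation (IgE-CAI). They received 300 μg of IgE against the hapten TNP into a vein and, a day later, 10 μg of TNP-conjugated ovalbumin into the skin of one ear. On day 5 after challenge the Mo-Macs of the ears were sorted by Ly6C and PD-L2, and bulk mRNA of 5000 to 80000 cells was sequenced, as 12 libraries, 3 from each fraction.

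The fractions were Ly6ChiPD-L2lo classical monocytes, Ly6ChiPD-L2hi early classical monocyte-derived macrophages (CMDMs), Ly6CloPD-L2hi late CMDMs and Ly6CloPD-L2lo resident-like macrophages. All 12 libraries came from WT ears with IgE-CAI on the same day, none was of untreated skin, and every comparison was between fractions. The labels do not say whether libraries of a fraction came from separate animals, and p-values measure the spread between libraries, which may be technical. Values are CPM, the counts of a gene scaled to a common library total, after TMM normalization, which sets the libraries to a common scale. A gene was called where the adjusted p of edgeR's quasi-likelihood test, fitted over all 12 libraries and adjusted over all genes tested, was under 0.05.

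Library totals ranged from 12537178 to 19844113 counts, at which 3 counts amount to 0.151 to 0.239 CPM. Pdcd1lg2, which encodes PD-L2, followed its gate, with means of 21.4 and 32.2 CPM in the PD-L2hi fractions, early and late CMDMs, and of 14.1 and 9.60 CPM in the PD-L2lo ones, classical monocytes and resident-like macrophages. Ly6c2 fell by 3.32 on the log2 scale from classical monocytes to early CMDMs (adjusted p = 5.35e-10), although both fractions were gated as Ly6Chi. The early CMDM libraries stood apart in markers of other cells. Their summed level of 12 keratinocyte genes was 19382 to 31002 CPM, against 2110 to 4570 CPM in the other fractions, and no gene of this list was at 0 in any fraction. Their summed level of 10 leukocyte genes was 1138 to 1841 CPM, against 2524 to 4830 CPM elsewhere. The 8 fibroblast genes summed to 3084 to 5875 CPM in classical monocytes and early CMDMs and to 288 to 517 CPM in late CMDMs and resident-like macrophages. The 8 T cell genes summed to 160 to 233 CPM in classical monocytes and to at most 37.8 CPM elsewhere. The 8 dendritic and Langerhans cell genes summed to 1525 to 1780 CPM in resident-like macrophages and to at most 414 CPM elsewhere. The 6 endothelial genes summed to 147 to 173 CPM in early and late CMDMs and to 50.6 to 80.3 CPM in classical monocytes and resident-like macrophages, none of them at 0, and 5 of the 6 were called higher in late CMDMs than in classical monocytes. This sum was higher in the CMDM fractions than in the others, as were the mean levels of Arg1, Slc7a2 and Odc1 given below. The endothelial sum was 149 to 160 CPM in early CMDMs and 147 to 173 CPM in late CMDMs. The part of this sum in the levels of Arg1, Slc7a2 and Odc1 was not tested. In bulk samples, fewer cells of a type and less RNA per cell cannot be told apart.

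Macrophages take up arginine through cationic amino acid transporters and spend it along competing routes. Arginase splits it into ornithine and urea, and ornithine feeds the polyamines and proline, whereas inducible nitric oxide synthase turns it into nitric oxide and citrulline. Citrulline can be rebuilt into arginine by argininosuccinate synthase and lyase. Interleukin-4 and STAT6 are textbook inducers of Arg1 in mouse macrophages, and bacterial products with interferon-γ are textbook inducers of Nos2. The polyamines putrescine, spermidine and spermine bind nucleic acids, and spermidine supplies the hypusine residue of the translation factor eIF5A.

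The isoforms of arginase and of the transporter differed in opposite directions. Arg1 and Slc7a2 were highest in late CMDMs, at 4.06-fold and 5.18-fold the level of classical monocytes, whereas their counterparts Arg2 and Slc7a1 were lower there by 2.18-fold and 2.78-fold. On the leukocyte scale given below Arg2 lost this call and Arg1, Slc7a2 and Slc7a1 kept theirs. In resident-like macrophages Arg1 and Slc7a2 were lower than in late CMDMs by 7.11-fold and 6.98-fold. With TMM the polyamine enzymes differed by less than 2-fold, and Nos2 stayed near the limit of detection in every fraction. On the leukocyte scale Srm, Odc1, Sat1 and Sms were higher in early CMDMs than in classical monocytes. Their log2 differences were 2.51, 2.23, 2.04 and 0.84, where the median of all genes was 1.71.

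**Figure D1:**
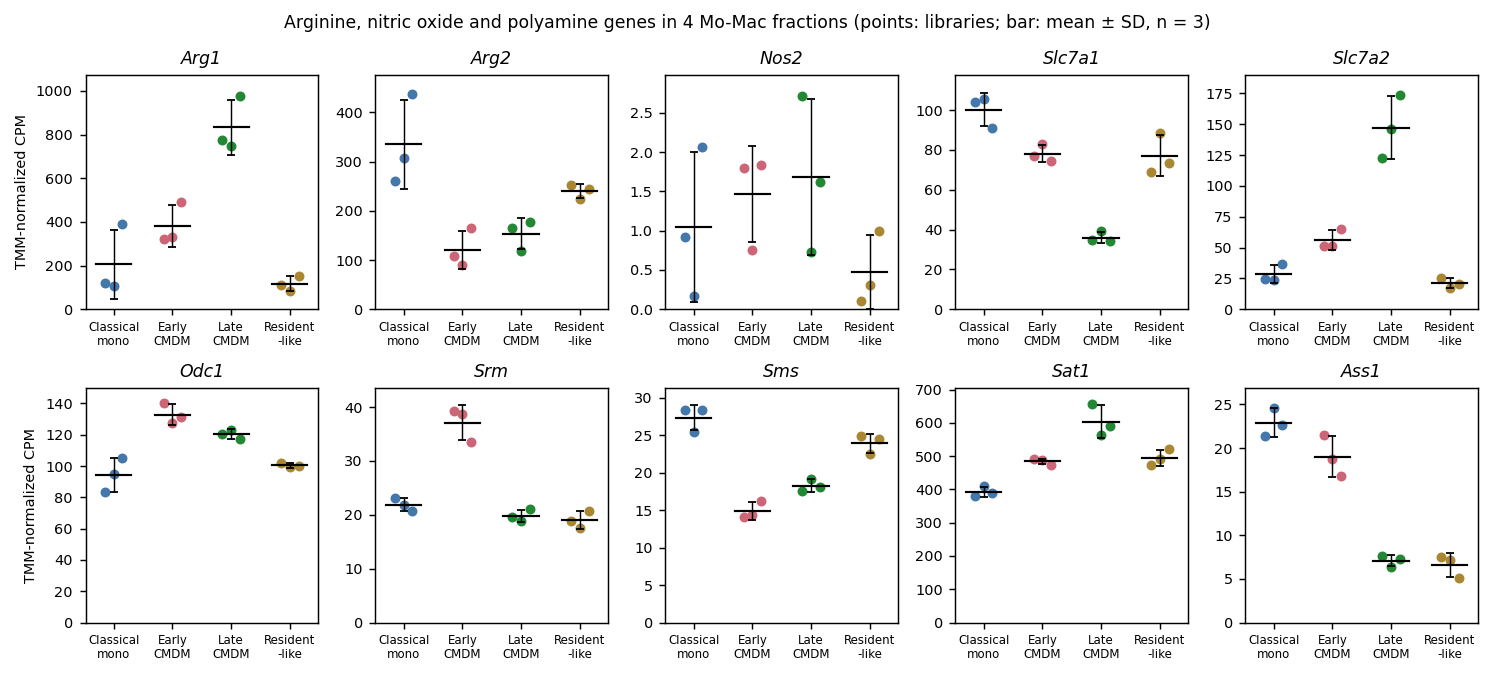
TMM-normalized CPM (y axis, from 0, a scale for each gene) of the 10 genes in the 4 fractions (x axis). Points are libraries, horizontal bars the mean of 3 and error bars the SD. Arg1 and Slc7a2 peak in late CMDMs at means of 833 and 147 CPM, while Slc7a1 is lowest there at 36.0 CPM.

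Arg1 encodes the cytosolic arginase (chromosome 10, 24915221 to 24927484, minus strand, GRCm38). Classical monocytes gave 121, 108 and 388 CPM and early CMDMs 320.1, 329 and 492 CPM. The libraries of late CMDMs were at 777, 746 and 977 CPM, against 113, 85.5 and 154 CPM for resident-like macrophages. All late CMDM libraries lay above every other library, and classical monocyte replicate 3 lay far above its own group and within the range of early CMDMs. Arg1 rose from classical monocytes to late CMDMs by 2.02 ± 0.46 on the log2 scale (SE, adjusted p = 0.00571) and was lower in resident-like macrophages than in late CMDMs by 7.11-fold (log2 difference -2.83, adjusted p = 0.00128). It was lower in resident-like macrophages than in early CMDMs as well, with a log2 difference of -1.70 (adjusted p = 0.0108), which without early CMDM replicate 3 was -1.47 and no longer called (adjusted p = 0.0537).

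The intermediate steps of Arg1 did not pass the main test, which used all 12 libraries, TMM and no term for the replicate number. Both passed in a fit with that number as a block, given in the closing section. From classical monocytes to early CMDMs the log2 difference was 0.89 ± 0.45 (SE, adjusted p = 0.133), and from early to late CMDMs it was 1.13 ± 0.45 (adjusted p = 0.0805) although the libraries of those fractions did not overlap. Both steps passed without classical monocyte replicate 3, at 1.74 (adjusted p = 9.44e-05) and 1.13 (adjusted p = 0.000968). The step from early to late CMDMs also passed when only those 6 libraries were fitted (1.14, adjusted p = 0.000458). Classical monocytes and resident-like macrophages were neighbours in the order of levels and did not differ beyond their spread (log2 difference -0.81, 95% interval -1.80 to 0.18, adjusted p = 0.248).

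Arg2, the mitochondrial arginase (chromosome 12, 79130777 to 79156301, plus strand), ran the other way. Classical monocytes gave 261, 308 and 437 CPM and early CMDMs 108, 90.6 and 165 CPM. Late CMDMs were at 164, 118 and 178 CPM, against 252, 224 and 244 CPM for resident-like macrophages. Each CMDM library was below each classical monocyte and resident-like library. Arg2 fell by 1.47 on the log2 scale from classical monocytes to early CMDMs (SE 0.23, adjusted p = 0.000127) and was lower in late CMDMs than in classical monocytes by 2.18-fold (adjusted p = 0.00147). It was 1.98-fold higher in resident-like macrophages than in early CMDMs (adjusted p = 0.00265). Its difference between resident-like macrophages and late CMDMs was 0.64 on the log2 scale with an adjusted p of 0.0472, next to the threshold, and it was not called in 8 of the 12 fits that left out 1 library. Early and late CMDMs, the lowest fractions, did not differ beyond their spread (0.34, 95% interval -0.14 to 0.83, adjusted p = 0.279), and neither did classical monocytes and resident-like macrophages, the highest (adjusted p = 0.152).

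The balance of both arginases within a library does not depend on how libraries are scaled. Per base of transcript, the Arg1 to Arg2 ratio was 0.338 to 0.859 in classical monocytes, 2.87 to 3.52 in early CMDMs, 4.57 to 6.09 in late CMDMs and 0.368 to 0.609 in resident-like macrophages. Arg2 was thus the more abundant arginase transcript in every classical monocyte and resident-like library, and Arg1 in every CMDM library. The ranges of early and late CMDMs did not overlap each other or those of the remaining fractions.

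Nos2 encodes the inducible nitric oxide synthase (chromosome 11, 78920787 to 78960254, plus strand). It drew 15, 3 and 37 counts in the classical monocyte libraries, 29, 12 and 29 counts in early CMDMs, 34, 12 and 24 counts in late CMDMs, and 2, 5 and 17 counts in resident-like macrophages. These amount to 0.11 to 2.71 CPM, and 1 classical monocyte and 1 resident-like library were at or under 3 counts. The libraries of every pair of fractions overlapped. In edgeR's test Nos2 passed in 0 of the 6 comparisons, with an unadjusted p under 0.05 in 1 of them, resident-like macrophages against late CMDMs (edgeR, adjusted p = 0.113). DESeq2 called it in 0 of the 6 as well. Per length, the mean level of Arg1 was 79.3 to 564 CPM per kb and that of Nos2 0.112 to 0.402 CPM per kb. Without resident-like replicate 3 Nos2 was called lower in resident-like macrophages than in late CMDMs (-2.99, adjusted p = 0.0413) and early CMDMs (-2.82, adjusted p = 0.0331). Scaled by 10 leukocyte genes, as described below for all members, Nos2 was called higher in early CMDMs than in classical monocytes (2.15, adjusted p = 0.0113) and lower in resident-like macrophages than in late CMDMs (-2.42, adjusted p = 0.0199) and early CMDMs (-3.17, adjusted p = 0.0019).

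**Figure D2:**
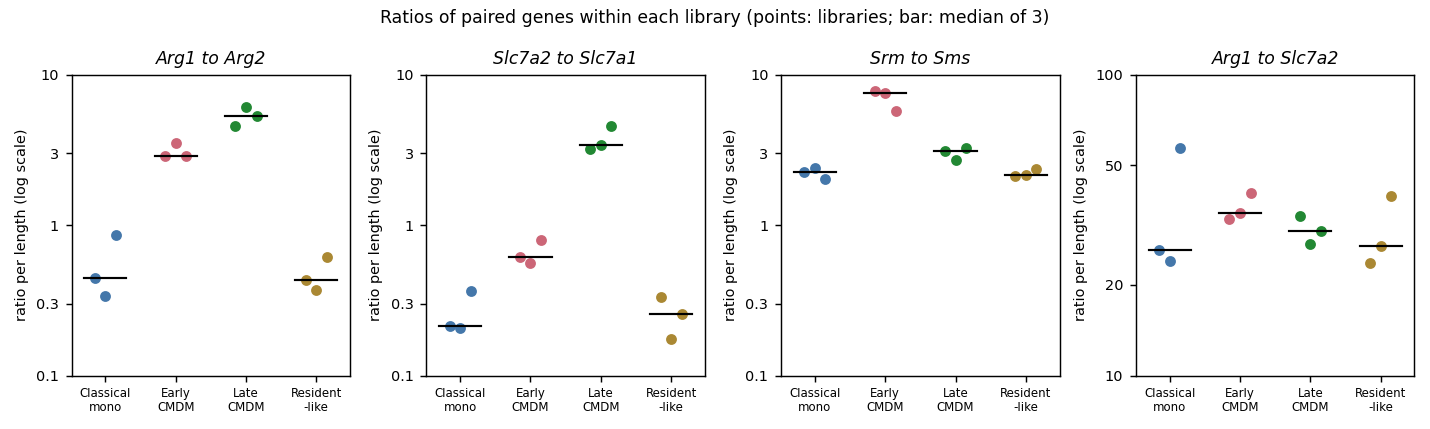
Ratio of the per-length levels of paired genes within each library (y axis, log scale) by fraction (x axis). Points are libraries and bars the median of 3. Arg1 to Arg2 and Slc7a2 to Slc7a1 are highest in late CMDMs, with medians of 5.30 and 3.39, Srm to Sms is highest in early CMDMs at 7.52, and Arg1 to Slc7a2 overlaps in all fractions.

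The transporters likewise differed in opposite directions. Slc7a2 encodes CAT2, the cationic amino acid transporter known as inducible in macrophages (chromosome 8, 40862396 to 40922308, plus strand). Classical monocytes gave 24.7, 24.0 and 36.6 CPM and early CMDMs 51.6, 50.9 and 65.3 CPM. The late CMDM libraries gave 122, 146 and 173 CPM and the resident-like ones 25.4, 17.0 and 20.8 CPM. Early and late CMDMs overlapped neither each other nor any other fraction. Slc7a2 rose by 0.98 ± 0.18 on the log2 scale from classical monocytes to early CMDMs (SE, adjusted p = 0.000513) and by a further 1.40 ± 0.18 to late CMDMs (adjusted p = 3.23e-05). It was 6.98-fold lower in resident-like macrophages than in late CMDMs (adjusted p = 8.68e-08), and its lowest fractions, resident-like macrophages and classical monocytes, did not differ by the test (-0.43, 95% interval -0.83 to -0.03, adjusted p = 0.122).

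Slc7a1 encodes CAT1, the broadly expressed transporter of the family (chromosome 5, 148327410 to 148399904, minus strand). Classical monocytes gave 104, 106 and 90.9 CPM and early CMDMs 76.8, 83.0 and 74.6 CPM. The libraries of late CMDMs were at 34.6, 39.1 and 34.4 CPM, against 69.1, 88.7 and 73.5 CPM for resident-like macrophages. The late CMDM libraries were below all others. Slc7a1 fell by 1.12 on the log2 scale from early to late CMDMs (SE 0.11, adjusted p = 1.53e-06) and was 2.14-fold higher in resident-like macrophages than in late CMDMs (adjusted p = 2.12e-06). Early CMDMs and resident-like macrophages stood next to each other, with a log2 difference of -0.02 (95% interval -0.25 to 0.21, adjusted p = 0.901). Both were lower than classical monocytes, by 1.28-fold (adjusted p = 0.0116) and 1.30-fold (adjusted p = 0.0157). The latter was not called without classical monocyte replicate 1 or 2 or without resident-like replicate 1 or 3.

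Within libraries, the per-length ratio of Slc7a2 to Slc7a1 was 0.206 to 0.365 in classical monocytes, 0.557 to 0.795 in early CMDMs, 3.21 to 4.58 in late CMDMs and 0.174 to 0.334 in resident-like macrophages. Slc7a2 was the more abundant of the pair only in the late CMDM libraries. The ratio of Arg1 to Slc7a2 was 24.0 to 56.8 in classical monocytes, 33.2 to 40.3 in early CMDMs, 27.3 to 34.0 in late CMDMs and 23.7 to 39.5 in resident-like macrophages, ranges that overlapped and spanned 23.7 to 56.8 over the 12 libraries.

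Arg1 and Slc7a2 also came together when all tested genes were ranked by likeness. Over the 12 libraries, which share their fractions and scaling, the 3 genes with the highest Pearson correlation with Arg1 in log2 CPM were Washc1 (0.961), Galnt4 (0.958) and Slc7a2 (0.957). Those for Slc7a2 were Msx3 (0.976), Pgpep1l (0.973) and Pdcd1lg2 (0.967), the last being the gene of the sorting marker PD-L2. Nos2 had lower values, up to 0.916 with Utp4. These are descriptions of 12 points in 4 fractions and carry no test.

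Ass1 encodes argininosuccinate synthase, which joins citrulline and aspartate (chromosome 2, 31470207 to 31520672, plus strand). It divided the fractions by Ly6C gate, not by PD-L2. Classical monocytes gave 21.4, 24.6 and 22.6 CPM and early CMDMs 21.5, 18.7 and 16.8 CPM. The late CMDM libraries gave 7.65, 6.38 and 7.28 CPM and the resident-like ones 7.49, 7.22 and 5.06 CPM. No library of the Ly6Chi fractions overlapped one of the Ly6Clo fractions. Ass1 fell by 1.42 on the log2 scale from early to late CMDMs (SE 0.16, adjusted p = 3.91e-06) and was 3.47-fold lower in resident-like macrophages than in classical monocytes (adjusted p = 2.84e-07). Within each gate the difference did not pass the test with TMM, at -0.27 for early CMDMs against classical monocytes (95% interval -0.57 to 0.04, adjusted p = 0.143) and -0.10 for resident-like macrophages against late CMDMs (95% interval -0.45 to 0.25, adjusted p = 0.692). On the leukocyte scale given below both were called, at 1.48 (adjusted p = 4.84e-07) and -0.74 (adjusted p = 0.00987). The median of all genes was 1.71 and -0.63 in these comparisons.

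The counts of Ass1 are shared with a near copy. Gm5424 matches it over 1240 bases at 99.5% identity and held 39.9% of the reads of both. With Gm5424 added to Ass1, the fall from early to late CMDMs was -1.45 (adjusted p = 6.67e-07), and no call of Ass1 changed. The fibroblast sum moved with Ass1 between fractions, at 3084 to 5875 CPM against 288 to 517 CPM. The sum was 5875, 4938 and 3378 CPM in the classical monocyte libraries, where Ass1 was 21.4, 24.6 and 22.6 CPM. It was 4355, 4323 and 3084 CPM in the early CMDM libraries, where Ass1 was 21.5, 18.7 and 16.8 CPM, the same order. The part of other cells in the fall of Ass1 was not tested.

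Promoter windows were read from RefSeq for 5 of the 10 genes, Slc7a1, Odc1, Sms, Sat1 and Ass1, as 250 bases before each listed start on GRCm38.p6. The E-box CACGTG, a core bound by Myc with Max and reading the same on both strands, was found in the window of Ass1 and in 1 window of Sms, 36 and 196 bases before the start. Both are printed because they alone held it, with the motif in capitals, and 6.02% of 32851 promoter windows of this length hold it. The STAT6-type motif, a TTC and a GAA 4 bases apart, was in 0 of the windows of those genes and in 5.85% of all. Ass1 lies at chr2:31470020-31470269 on the plus strand and Sms at chrX:157492288-157492537 on the minus strand.
Ass1: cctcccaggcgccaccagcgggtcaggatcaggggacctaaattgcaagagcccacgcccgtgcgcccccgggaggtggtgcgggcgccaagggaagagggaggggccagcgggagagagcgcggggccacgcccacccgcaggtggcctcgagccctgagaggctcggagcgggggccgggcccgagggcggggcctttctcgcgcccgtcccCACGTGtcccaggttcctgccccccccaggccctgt
Sms: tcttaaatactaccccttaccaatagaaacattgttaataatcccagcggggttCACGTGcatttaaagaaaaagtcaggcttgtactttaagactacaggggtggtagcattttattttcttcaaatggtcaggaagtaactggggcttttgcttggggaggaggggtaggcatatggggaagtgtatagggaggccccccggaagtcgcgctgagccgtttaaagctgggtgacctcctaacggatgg
A match is a description of the letters, and the data hold no measurement of a factor bound there.

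With TMM the polyamine enzymes differed less than the arginases and transporters, and early CMDMs held the extremes of Odc1, Srm and Sms. Odc1 encodes ornithine decarboxylase, the rate-limiting step to putrescine (chromosome 12, 17544794 to 17551505, plus strand). Classical monocytes gave 83.3, 94.7 and 105 CPM and early CMDMs 140.0, 127 and 131 CPM. Late CMDMs were at 121, 123 and 117 CPM, against 102, 99.2 and 99.8 CPM for resident-like macrophages. Every CMDM library was above every other library. Odc1 rose by 0.49 ± 0.09 on the log2 scale from classical monocytes to early CMDMs (SE, adjusted p = 0.000403) and was higher in late CMDMs than in classical monocytes by 0.35 (adjusted p = 0.00762). Early and late CMDMs were not told apart with TMM (-0.14, 95% interval -0.34 to 0.06, adjusted p = 0.274), nor were resident-like macrophages and classical monocytes (adjusted p = 0.568). On the leukocyte scale given below Odc1 was called lower in late than in early CMDMs (-1.11, adjusted p = 3.73e-06), where the median of all genes was -0.94. The difference of -0.26 between resident-like macrophages and late CMDMs had an adjusted p of 0.0468 and was not called in 10 of the 12 fits that left out 1 library.

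Srm and Sms encode spermidine synthase and spermine synthase, the steps after putrescine. Srm (chromosome 4, 148591503 to 148594993, plus strand) was at 39.3, 38.7 and 33.4 CPM in early CMDMs, above all other libraries, which spanned 17.5 to 23.1 CPM. It rose by 0.76 ± 0.11 on the log2 scale from classical monocytes to early CMDMs (SE, adjusted p = 2.23e-05) and fell by 0.91 to late CMDMs (SE 0.11, adjusted p = 9.53e-06). The remaining fractions did not differ from each other by the test with TMM, with adjusted p from 0.224 to 0.75. On the leukocyte scale Srm was called higher in late CMDMs than in classical monocytes (0.61, adjusted p = 0.00987). It was called lower there in resident-like macrophages than in late CMDMs (-0.69, adjusted p = 0.00596). The median of all genes was 0.75 and -0.63 in these comparisons.

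Sms (chromosome X, 157443855 to 157492287, minus strand) was lowest where Srm was highest. Classical monocytes gave 28.3, 25.4 and 28.3 CPM and early CMDMs 14.0, 14.3 and 16.2 CPM. The libraries of late CMDMs were at 17.5, 19.2 and 18.1 CPM, against 24.9, 22.4 and 24.4 CPM for resident-like macrophages. No fraction overlapped another. Sms fell by 0.88 on the log2 scale from classical monocytes to early CMDMs (SE 0.11, adjusted p = 4.73e-06) and was 1.61-fold higher in resident-like macrophages than in early CMDMs (adjusted p = 6.05e-05). Its rise of 0.30 from early to late CMDMs was near the threshold (adjusted p = 0.0451) and was not called with the reads of 3 near copies added (0.27, adjusted p = 0.0701), which held 18.8% of the reads, nor in 7 of the 12 fits that left out 1 library. The per-length ratio of Srm to Sms was 5.73 to 7.77 in early CMDMs, against a median of 2.26 in classical monocytes, and ranges of 2.73 to 3.23 in late CMDMs and 2.11 to 2.36 in resident-like macrophages. Within early CMDMs this ratio was lowest in replicate 3, the library with the lowest keratinocyte sum (19382 CPM), where Srm was lowest and Sms highest. The part of keratinocyte RNA in the early CMDM values of Odc1, Srm and Sms was not tested.

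Sat1 encodes the acetyltransferase that opens the breakdown and export of spermidine and spermine (chromosome X, 155213132 to 155216449, minus strand). It had the highest level per length of the 4 polyamine enzymes in each fraction, with means of 290.3 to 447 CPM per kb against 42.7 to 60.2 CPM per kb for Odc1. In CPM it ran from 381 to 409 in classical monocytes, from 475 to 491 in early CMDMs, from 563 to 658 in late CMDMs and from 475 to 522 in resident-like macrophages. Classical monocytes lay below and late CMDMs above all other libraries. Sat1 was 1.54-fold higher in late CMDMs than in classical monocytes (log2 0.62 ± 0.09, SE, adjusted p = 6.87e-05). The rise of 0.32 from early to late CMDMs (adjusted p = 0.015) was 0.25 and not called without late CMDM replicate 1 (adjusted p = 0.0913). Early CMDMs and resident-like macrophages overlapped and did not differ by the test (0.03, 95% interval -0.16 to 0.23, adjusted p = 0.797).

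**Figure D3:**
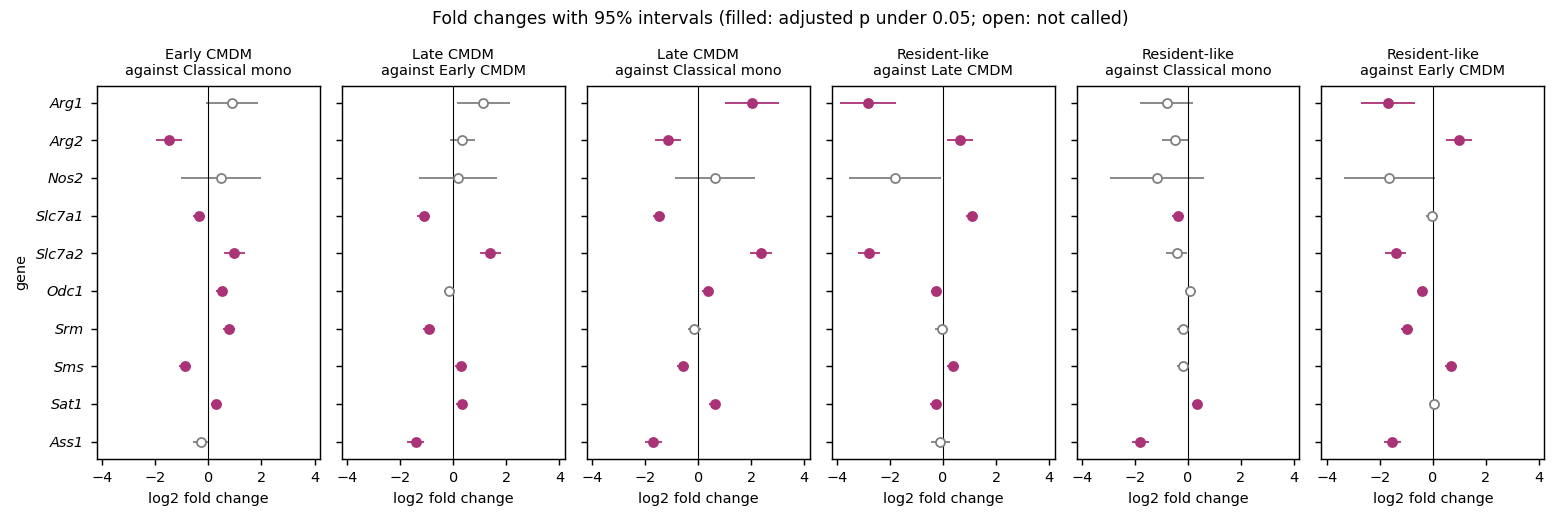
Log2 fold change (x axis) of the 10 genes (y axis) in the 6 comparisons, the first-named fraction minus the second, with 95% intervals. Filled points passed the test and open points did not. Slc7a2 and Slc7a1 lie on opposite sides of 0 between late CMDMs and classical monocytes, at 2.37 and -1.48, while the intervals of Nos2 are the widest throughout.

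Counted over the members, 7 of 10 were called between early CMDMs and classical monocytes, 4 higher (Slc7a2, Odc1, Srm, Sat1) and 3 lower (Arg2, Slc7a1, Sms). The share over all genes tested was 44.9%, of which 24.2% were higher and 20.6% lower. Between late and early CMDMs 6 were called, 3 higher (Slc7a2, Sms, Sat1) and 3 lower (Slc7a1, Srm, Ass1), against 31.9% of all genes, 14.4% higher and 17.5% lower. Between late CMDMs and classical monocytes the count was 8, with 4 higher (Arg1, Slc7a2, Odc1, Sat1) and 4 lower (Arg2, Slc7a1, Sms, Ass1), against 35.6% of all genes, 18.1% higher and 17.5% lower. The median log2 difference of the members was 0.39, 0.23 and 0.10 in these comparisons, and that of all genes -0.01, 0.02 and -0.01.

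Between resident-like macrophages and late CMDMs 7 members were called, 3 higher (Arg2, Slc7a1, Sms) and 4 lower (Arg1, Slc7a2, Odc1, Sat1), against 28.1% of all genes, 12.7% higher and 15.4% lower. This count went down to 3 with single libraries left out, the lowest without late CMDM replicate 1, as the differences of Arg2, Odc1, Sms and Sat1 were near the threshold. Between resident-like macrophages and classical monocytes 3 were called, Sat1 higher and Slc7a1 and Ass1 lower, near the 23.7% of all genes, 10.8% higher and 12.9% lower. That count was 1, Ass1 alone, without resident-like replicate 3, and 6 when libraries were scaled by library size alone. Between resident-like macrophages and early CMDMs 7 were called, 2 higher (Arg2, Sms) and 5 lower (Arg1, Slc7a2, Odc1, Srm, Ass1), against 46.6% of all genes, 21.4% higher and 25.1% lower. The comparisons share fractions, so their counts are not independent of each other. The members were chosen with earlier results of these data known, so the shares over all genes are set beside the counts without a test.

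How the fractions compare depended on the scale, most of all for early CMDMs. When libraries were set to equal levels of the 10 leukocyte genes in place of TMM, the median of all genes moved by 1.71 on the log2 scale between early CMDMs and classical monocytes, by -0.94 between late and early CMDMs and by 0.75 between late CMDMs and classical monocytes. On that scale early CMDMs had 9 members called higher than classical monocytes and 0 lower, and 97.7% of all genes called there were higher, against 54% with TMM. Arg1 was then 2.60 higher in early CMDMs than in classical monocytes (adjusted p = 0.000167) and 0.20 higher in late than in early CMDMs (adjusted p = 0.663). Slc7a2 kept its direction at each step, at 2.69 (adjusted p = 2.95e-12) and 0.45 (adjusted p = 0.0295). Slc7a1, Sms, Arg2 and Ass1 turned from lower to higher in early CMDMs than in classical monocytes, at 1.38, 0.84, 0.21 and 1.48, of which Arg2 was not called (adjusted p = 0.252). Of all genes called between late and early CMDMs 0.959% were higher on that scale, against 45.1% with TMM. The share was 92.2% against 50.8% between late CMDMs and classical monocytes, 4.96% against 45.1% between resident-like macrophages and late CMDMs, and 1.51% against 46% between resident-like macrophages and early CMDMs. Scaled by library size alone, the shares for resident-like macrophages were 28% against late CMDMs, 24.1% against classical monocytes (45.7% with TMM) and 31.5% against early CMDMs.

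Relative to the median gene the same values were 0.89 for Arg1, 0.98 for Slc7a2, -1.50 for Arg2, -0.32 for Slc7a1 and -0.87 for Sms between early CMDMs and classical monocytes. Late CMDMs against classical monocytes kept the directions of Arg1 (2.80, adjusted p = 0.000276), Slc7a2 (3.14, adjusted p = 5.17e-13), Slc7a1 (-0.71, adjusted p = 0.00247) and Ass1 (-0.93, adjusted p = 0.000917) on the leukocyte scale. Arg2 was -0.37 there and no longer called (adjusted p = 0.0627), and between resident-like macrophages and late CMDMs it was 0.02 (adjusted p = 0.922). The keratinocyte sums of late CMDMs and classical monocytes overlapped, at 3541 to 4226 CPM in late CMDMs and 2110 to 4570 CPM in classical monocytes. Between resident-like macrophages and late CMDMs the differences of Arg1 and Slc7a2 on the leukocyte scale were -3.46 (adjusted p = 0.00013) and -3.44 (adjusted p = 8.32e-13), where the median of all genes was -0.63.

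**Figure D4:**
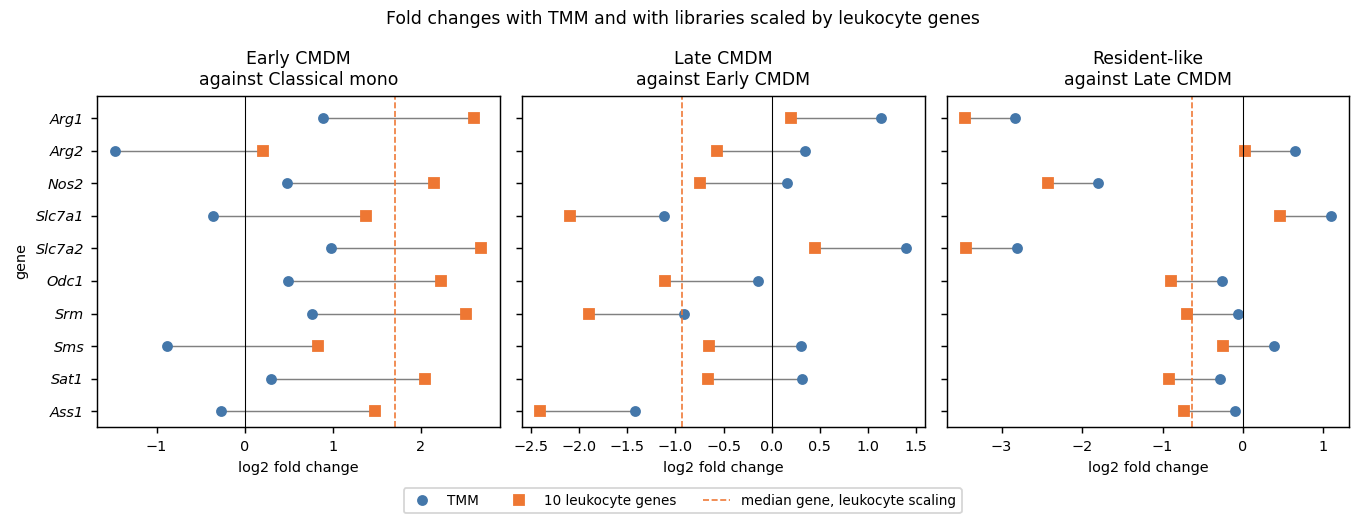
Log2 fold change (x axis) of the 10 genes (y axis) with TMM (circles) and with libraries scaled by 10 leukocyte genes (squares), for 3 comparisons. The dashed line is the median of all genes on the leukocyte scale, 1.71, -0.94 and -0.63 from left to right. Every gene shifts by about the shift of the median, so that Arg1 from early to late CMDMs moves from 1.13 to 0.20.

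Single libraries also moved with the marker sums. In classical monocyte replicate 3, Arg1, Arg2, Nos2, Slc7a2 and Odc1 were each the highest of their group, the keratinocyte sum (2110 CPM) and the fibroblast sum (3378 CPM) the lowest, and the leukocyte sum (4830.0 CPM) the highest. In early CMDM replicate 3, Arg1, Arg2 and Slc7a2 were the highest of their group while Slc7a1, Srm, Sat1 and Ass1 were the lowest, and there too the keratinocyte sum (19382 CPM) was the lowest and the leukocyte sum (1841 CPM) the highest. The part of these sums in the spread between replicates was not tested.

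The wider pathway was read from 67 other genes in 6 lists, of which 59 passed the filter. Their calls and log2 differences are on the TMM scale and depend on the scale as described above, also where early CMDMs are not involved. On the leukocyte scale the median of all genes was 0.75 between late CMDMs and classical monocytes. It was -0.63 between resident-like macrophages and late CMDMs. Between late CMDMs and classical monocytes 31 were called, 15 higher and 16 lower, which is 52.5% beside 35.6% of all genes, with a median log2 difference of -0.05 beside -0.01 for all genes. Between early CMDMs and classical monocytes 20 were called, 9 higher and 11 lower, which is 33.9% and below the 44.9% of all genes. Between late and early CMDMs 24 were called, 14 higher and 10 lower, or 40.7% beside 31.9%. Resident-like macrophages held 16 higher and 10 lower than late CMDMs (44.1% beside 28.1% of all genes), 11 higher and 9 lower than classical monocytes (33.9% beside 23.7%), and 21 higher and 13 lower than early CMDMs (57.6% beside 46.6%).

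The list of arginine and polyamine transport also holds carriers of other amino acids, such as Slc7a11. Of its 12 tested genes, 5 were higher and 5 lower in late CMDMs than in classical monocytes. That is 83.3% called beside 35.6% of all genes. Slc3a2, the heavy chain that carries several amino acid transporters to the surface, had the highest mean level of the list and fell by 0.82 on the log2 scale from classical monocytes to early CMDMs (adjusted p = 3.55e-05), from a mean of 391 to 222 CPM. Its light-chain partners for cationic amino acids went separate ways. Slc7a7 was 38.3 ± 5.6 CPM in late CMDMs (SD, n = 3) against 18.0 ± 4.5 CPM in early CMDMs, a rise of 1.09 (adjusted p = 0.00026). Slc7a6 was highest in early CMDMs at 41.5 ± 6.3 CPM and fell by 1.55 to late CMDMs (adjusted p = 7e-07). The keratinocyte sum was highest there too, and its part in this peak was not tested. Slc7a11, the cystine-glutamate exchanger, was 141 ± 44 CPM in classical monocytes and fell by 2.26 to early CMDMs (adjusted p = 3.53e-06).

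Of the recycling genes only Asl, argininosuccinate lyase, could be tested, since Otc and Nags had 0 to 4 counts summed over each fraction. Asl did not follow Ass1. It was 27.3 ± 4.9 CPM in classical monocytes and 34.0 ± 1.4 CPM in resident-like macrophages, with 22.7 ± 0.6 and 25.8 ± 1.8 CPM in early and late CMDMs (SD, n = 3), and it was higher in resident-like macrophages than in late CMDMs by 0.40 on the log2 scale (adjusted p = 0.0192). From early to late CMDMs, where Ass1 fell, the log2 difference of Asl was 0.18 (adjusted p = 0.283).

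Among 13 genes of nitric oxide synthesis, its cofactor and its inhibitors, 5 were higher and 1 lower in late CMDMs than in classical monocytes, or 46.2% beside 35.6% of all genes. Gch1, which opens the synthesis of the cofactor tetrahydrobiopterin, was highest in resident-like macrophages at 108 ± 3 CPM (SD, n = 3) and was lower in early CMDMs than in classical monocytes by 0.89 on the log2 scale, a fall with an adjusted p of 9.38e-06. Ddah1, which breaks down methylated arginine inhibitors of nitric oxide synthases, was 2.69 ± 1.02 CPM in late CMDMs, against 0.541 ± 0.349 CPM for resident-like macrophages (SD, n = 3), a log2 difference of -2.31 (adjusted p = 0.000238). Nostrin, which binds the endothelial synthase, rose by 1.28 from early to late CMDMs (adjusted p = 3.07e-05). Cygb, a globin of fibroblasts that consumes nitric oxide, fell by 2.52 at this step (adjusted p = 6.67e-06), with means of 49.2 and 40.8 CPM in classical monocytes and early CMDMs and 7.09 and 3.60 CPM in late CMDMs and resident-like macrophages. The fibroblast sum given above moved with Cygb, and its part was not tested.

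**Figure D5:**
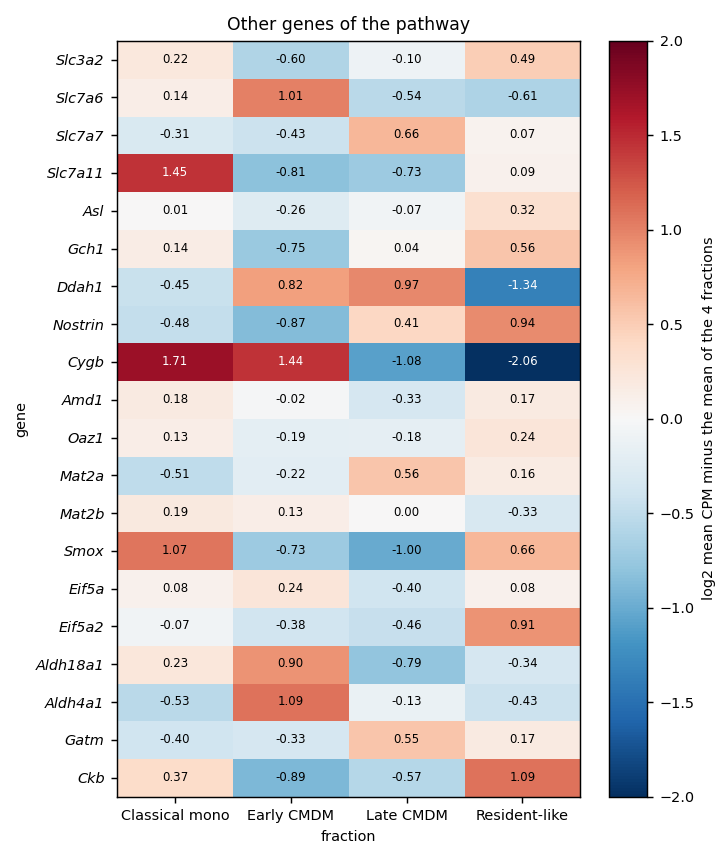
Log2 mean CPM of 20 other genes of the pathway (rows) in the 4 fractions (columns), each minus its mean over the fractions. Red is higher and blue lower. Cygb is 1.71 above its mean in classical monocytes and 2.06 below it (-2.06) in resident-like macrophages, and Mat2a is highest in late CMDMs at 0.56.

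Of 14 genes of polyamine synthesis and its regulators, 3 were higher and 4 lower in late CMDMs than in classical monocytes, or 50% beside 35.6% of all genes. Mat2a, which makes the S-adenosylmethionine used for spermidine and spermine, was lowest in classical monocytes at 168 ± 11 CPM and highest in late CMDMs at 352 ± 39 CPM, with 205 ± 17 CPM in early CMDMs and 266 ± 6 CPM in resident-like macrophages (SD, n = 3). It rose by 0.78 on the log2 scale from early to late CMDMs (adjusted p = 2.82e-05). Amd1, the decarboxylase that follows it, fell by 0.31 at the same step (adjusted p = 0.0122), from 60.2 ± 3.0 to 48.6 ± 1.7 CPM (SD, n = 3). Oaz1, the antizyme that directs ornithine decarboxylase to degradation, was the most abundant of the list and was lower in early CMDMs (482 ± 27 CPM) than in classical monocytes (601 ± 28 CPM, log2 difference -0.32, adjusted p = 0.00895), the step at which Odc1 rose. Mat2b was lower in resident-like macrophages than in every other fraction, by -0.33 to -0.52 on the log2 scale.

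Among 7 genes of polyamine breakdown and hypusination, 0 were higher and 2 lower in late CMDMs than in classical monocytes, or 28.6%, below the 35.6% of all genes. Smox, the oxidase that turns spermine back into spermidine, was like Arg2 and Sms higher in classical monocytes and resident-like macrophages than in both CMDM fractions. It was 263 ± 61 and 198 ± 11 CPM in the former and 75.9 ± 4.2 and 62.6 ± 1.9 CPM in early and late CMDMs (SD, n = 3), with a fall of 1.79 on the log2 scale to early CMDMs (adjusted p = 3.75e-08) and a difference of 1.67 between resident-like macrophages and late CMDMs (adjusted p = 2.43e-07). Eif5a, the hypusinated factor itself, fell by 0.64 from early to late CMDMs (adjusted p = 4.89e-05), and its paralog Eif5a2 was 1.36 higher in resident-like macrophages than in late CMDMs (adjusted p = 6.27e-06).

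Among 12 genes leading from ornithine and arginine to proline, glutamate, creatine and agmatine, 2 were higher and 4 lower in late CMDMs than in classical monocytes, or 50% beside 35.6% of all genes. Aldh18a1, which starts proline synthesis from glutamate, and Aldh4a1, which ends proline breakdown, both peaked in early CMDMs, at 8.96 ± 2.84 and 22.6 ± 3.9 CPM (SD, n = 3), and fell by 1.69 (adjusted p = 5e-05) and 1.22 (adjusted p = 2.34e-05) on the log2 scale to late CMDMs. The keratinocyte sum given above was highest in early CMDMs as well, and its part in these peaks was not tested. Gatm, which transfers the amidino group of arginine to glycine, was highest in late CMDMs at 136 ± 10 CPM, having risen by 0.88 from early CMDMs (adjusted p = 0.00122). Ckb, the brain-type creatine kinase, was highest in resident-like macrophages at 116 ± 7 CPM and 1.66 higher there than in late CMDMs (adjusted p = 3.96e-08). The dendritic and Langerhans cell sum given above was highest in resident-like macrophages as well. Its part in the peaks of Ckb, Asl, Gch1 and Eif5a2 in that fraction was not tested.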

How the data were processed

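Poly(A) RNA of sorted skin Mo-Mac fractions was sequenced. The authors trimmed reads with cutadapt 4.1, aligned them with Bowtie2 2.4.5 to a GRCm38 transcript reference and counted reads per gene symbol, and the deposited counts are not normalized. Reads of near-identical copies can be split between symbols. Counts of all 12 libraries were fitted in R 4.3.3 with edgeR 4.0.16 (TMM, filterByExpr, robust quasi-likelihood test, 1 coefficient per fraction), and p-values were adjusted over 22118 genes by the Benjamini-Hochberg method, with a threshold of 0.05. Likeness used log2 CPM with a prior count of 2. Per-length values used the length of the longest annotated transcript of each gene, and no other choice of transcript was tried. DESeq2 1.42.0 and other scalings, filters and omissions of single libraries served as alternatives. The test was checked on simulated counts. All 10 members were named throughout, and other pathway genes by a rule on size of change. Members and lists were chosen with earlier results of these data known. Intervals from counts and the floor of 3 counts cover counting error only.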

Additional observations from a re-analysis of the deposited data

How the results depend on the processing

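Each of the 60 member differences was refitted under each alternative. DESeq2 left all 60 on their side of the threshold and in their direction, and edgeR with RLE size factors left 59. Scaling by 10 leukocyte genes reversed 14. Between early CMDMs and classical monocytes these were Arg2 (0.21), Slc7a1 (1.38), Sms (0.84) and Ass1 (1.48), between late and early CMDMs Arg2 (-0.57), Nos2 (-0.75), Sms (-0.65) and Sat1 (-0.66), and for late CMDMs against classical monocytes Srm (0.61) and Sms (0.19). Between resident-like macrophages and late CMDMs Sms turned (-0.25), and between resident-like macrophages and early CMDMs Arg2 (-0.55), Sms (-0.90) and Sat1 (-1.58). These follow from the shift of the median gene given above. With library size alone, Odc1 between resident-like macrophages and classical monocytes (-0.080) and Sat1 between resident-like macrophages and early CMDMs (-0.13) changed sign. With only the 6 libraries compared, Slc7a1 between the latter fractions did (0.0031), and for these uncalled differences the cause was not tested.

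With 1 library left out at a time, Nos2 ranged from -0.041 to 1.46 between early CMDMs and classical monocytes and from -0.33 to 0.54 between late and early CMDMs. Srm (-0.12 to 0.0014) and Ass1 (-0.21 to 0.054) changed sign between resident-like macrophages and late CMDMs, Arg1 (-1.12 to 0.040) between resident-like macrophages and classical monocytes, and Slc7a1 (-0.13 to 0.054) and Sat1 (-0.0069 to 0.063) between resident-like macrophages and early CMDMs. None of these differences was called with all libraries. The count of members called was 3 to 7 between resident-like macrophages and late CMDMs and 1 to 3 between resident-like macrophages and classical monocytes.

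Members called with a log2 difference of at least 1 numbered 1 for early CMDMs against classical monocytes, 3 for late against early CMDMs, 5 for late CMDMs against classical monocytes, and 3, 1 and 3 between resident-like macrophages and late CMDMs, classical monocytes and early CMDMs. The shares over all genes were 20%, 11.9%, 14.2%, 10.4%, 10.3% and 21.2%. At an adjusted p under 0.01 the counts were 3 between resident-like macrophages and late CMDMs and 1 between resident-like macrophages and classical monocytes. Without a filter the former was 4. The latter was 6 with library size alone and 1 with leukocyte scaling. Adding near copies, an alternative chosen after seeing the data, ended 1 call (Sms between late and early CMDMs, 0.27, adjusted p = 0.0701).

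Whether replicate numbers pair the samples is not given by the labels. Deviations of same-numbered libraries correlated at -0.099 to 0.248, with a median of 0.059 and 4 of 18 pairs over 0.1. Those of differently numbered libraries had a median of -0.031, with 1 of 36 pairs over 0.1. Of the 12 libraries, 10 correlated best with their own number. With the replicate number as a block, 6 differences became called and 0 were lost. These were Arg1 between early CMDMs and classical monocytes (1.06, adjusted p = 0.00562) and between late and early CMDMs (1.16, adjusted p = 0.00429), Nos2 between resident-like macrophages and late CMDMs (-1.89, adjusted p = 0.0169) and early CMDMs (-1.70, adjusted p = 0.0194), and Arg2 (-0.45, adjusted p = 0.0308) and Slc7a2 (-0.41, adjusted p = 0.0496) between resident-like macrophages and classical monocytes. Members called between resident-like macrophages and classical monocytes numbered 5. Nos2, at 2 to 37 counts, did not pass a filter of 10 counts in every library.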
